A study of Mus musculus with 108 samples.

Results

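Transcripts of blood clotting proteins were followed in mouse liver through a time course of 2 peroxisome proliferators. The 10 genes were chosen by symbol in the platform annotation: the fibrinogen chains Fga, Fgb and Fgg, prothrombin F2, the factors F5, F7, F9, F10 and F11, and protein C, Proc. They are 10 of the 15129 genes with a value on the arrays. Only 5 of them (Fga, F5, F7, F9 and F11) gave readable levels, and the other 5 lay at the upper limit of the scanner.

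Ovariectomized female C57BL/6 mice received 300 mg/kg clofibrate or 300 mg/kg Wy-14,643 by gavage, or the sesame oil vehicle, and liver RNA was hybridised to single-colour arrays. One set of livers was taken 2, 4, 8, 12, 18 and 24 h after a single gavage, another after 1, 4 and 14 days on which the mice were dosed every day. The 1 day groups therefore stand about as long after their first dose as the 24 h groups. Each compound had its own vehicle group at each time, which gave 36 groups of 3 biological replicates and 108 arrays. All animals, vehicle groups included, lacked ovaries, so the levels describe liver without ovarian hormones. Their ages are not given in the sources used here.

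Nearly all plasma clotting factors are made by hepatocytes. Factor VII with tissue factor starts the cascade, factor XI and factor IX carry the intrinsic branch, factor X with its cofactor factor V turns prothrombin into thrombin, and thrombin cuts fibrinogen into fibrin. Protein C, once activated, inactivates factor V. Clofibrate, a fibrate ester, and Wy-14,643, a chlorinated pyrimidine thioacetic acid, both bind PPAR alpha, a nuclear receptor through which liver genes of fatty acid oxidation are switched on.

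The promoters of 4 genes are shown because these genes span the range of responses: F7, F11 and Fga, which fell under Wy-14,643, and F9, which moved least. Each is the 250 bases before the annotated start, 5′ to 3′, from RefSeq on GRCm38.p6: F7 at chr8:13025784-13026033 on the plus strand, F11 at chr8:45262032-45262281 on the minus strand, Fga at chr3:83025903-83026152 on the plus strand and F9 at chrX:59999214-59999463 on the plus strand. Capitals mark matches to 5 motifs searched on both strands.
F7: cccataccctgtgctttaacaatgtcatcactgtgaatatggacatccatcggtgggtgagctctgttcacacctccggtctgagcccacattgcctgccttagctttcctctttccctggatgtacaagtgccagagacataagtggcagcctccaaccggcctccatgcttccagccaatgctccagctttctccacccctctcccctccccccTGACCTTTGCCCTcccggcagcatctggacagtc
F11: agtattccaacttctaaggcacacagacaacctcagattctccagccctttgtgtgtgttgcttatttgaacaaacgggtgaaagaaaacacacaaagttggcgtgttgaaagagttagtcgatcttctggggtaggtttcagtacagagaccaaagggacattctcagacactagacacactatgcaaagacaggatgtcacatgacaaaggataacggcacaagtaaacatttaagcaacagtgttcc
Fga: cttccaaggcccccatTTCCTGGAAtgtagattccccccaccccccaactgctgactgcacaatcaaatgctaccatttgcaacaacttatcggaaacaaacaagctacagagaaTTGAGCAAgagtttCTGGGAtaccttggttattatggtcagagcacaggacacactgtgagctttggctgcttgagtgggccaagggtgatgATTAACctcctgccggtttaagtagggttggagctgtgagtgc
F9: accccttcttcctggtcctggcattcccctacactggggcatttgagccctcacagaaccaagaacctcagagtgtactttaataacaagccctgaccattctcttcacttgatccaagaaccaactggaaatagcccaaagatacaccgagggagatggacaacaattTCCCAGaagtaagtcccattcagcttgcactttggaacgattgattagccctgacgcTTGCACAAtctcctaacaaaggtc

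The motifs were a direct repeat of AGGNCA with 1 base between the copies (read by HNF4 and by PPAR with RXR), GTTAAT (an HNF1 half-site), TTGCNCAA (C/EBP), TTCCNGGAA (STAT) and CTGGGA (the core of the interleukin-6 element). The F7 window held the direct repeat from -34 to -22, a match found in 0.338% of the 32851 promoters of the table. Fga held the STAT letters from -234 to -226 (0.913% of promoters), the C/EBP letters from -135 to -128 (2.61%), the interleukin-6 core from -121 to -116 (27.0%) and the HNF1 half-site from -43 to -38 (6.43%). F9 held the interleukin-6 core from -81 to -76 and the C/EBP letters from -24 to -17. F11 held none of these letters in this window, nor did F5 or F2. No binding was measured in this series, so these matches describe the letters only. RefSeq promoters were searched for 9 of the 10 genes, all but Proc.

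Fgb, Fgg, F2 and Proc lay within 0.1 log2 of the scanner limit on all 108 arrays, and their levels could not be read in any group. F10 lay there on 106 arrays. It came under the limit on clofibrate replicate 3 at 8 h, by 0.21 log2, and on Wy-14,643 replicate 3 at 18 h, by 0.14 log2. The abundance of these 5 transcripts was therefore bounded from below only, and no effect of either compound on them is reported. Fga reached the limit on 10 arrays and was under it on 98. The other 4 readable genes were under the limit on all arrays, with the closest approach by F11 (0.58 log2).

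**Figure D1:**
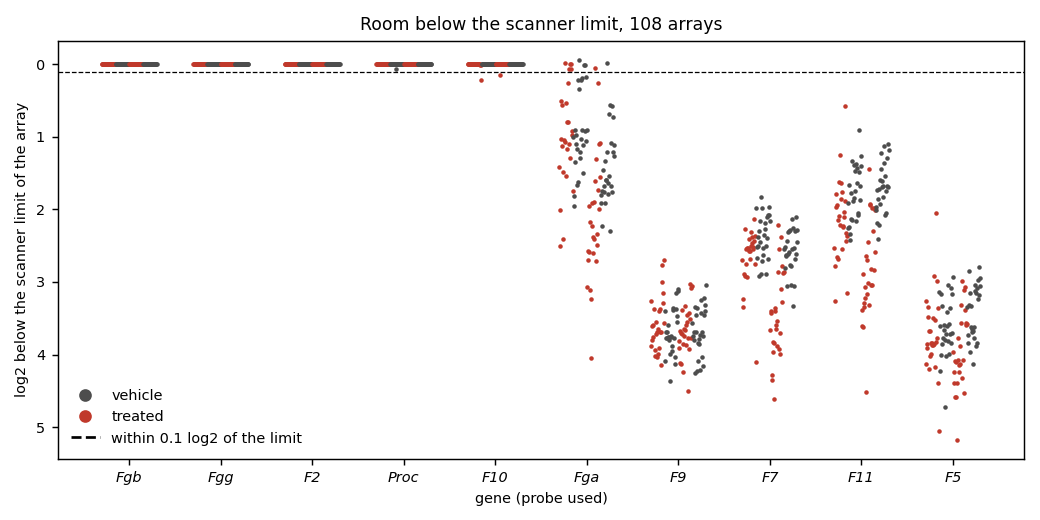
Distance in log2 units of each gene's probe below the scanner limit of its array (y axis, inverted, 0 is the limit) for the 10 genes on 108 arrays. Within a gene, points run from left to right through clofibrate-treated, clofibrate vehicle, Wy-14,643-treated and Wy-14,643 vehicle arrays; 5 genes lie on the limit, while F5, F7, F9 and F11 stay clear of it and Fga reaches it on 10 arrays.

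Levels below are log2 intensities scaled to a common 75th percentile per array, and a difference is treated minus time-matched vehicle. A gene was called where limma's adjusted p over all genes was under 0.05. In the clofibrate arm, vehicle replicate 1 of 14 days nearly equalled vehicle replicate 1 of 4 days (correlation 0.99998, against 0.99532 for the next closest pair). Called values of the clotting genes that rest on these groups are given without both arrays too. Values of the related lists and markers are given with both arrays only. The hepatocyte markers Alb, Apoa1 and Tat had values on all 108 arrays, with mean levels of 16.00, 15.98 and 15.96, but they lay at the scanner limit on 108, 106 and 98 arrays, and 0 hepatocyte markers could be tested for the mean over the 9 times. At single times Tat, at the limit on most arrays, was called lower under Wy-14,643 at 24 h (-0.43) and 1 day (-0.69). F2, at the limit on all arrays, shifted in the same way at 1 day. Its scaled vehicle values were 16.36, 16.24 and 16.55 against 15.84, 15.66 and 15.8 under Wy-14,643. Its deposited values were 15.96, 15.89 and 16.15 against 16.06, 15.92 and 16.02. The Tat values cannot be told apart from this effect of the array scaling. In whole liver, fewer cells of a type and less RNA per cell cannot be told apart. For the mean over the 9 times, 4 of 5 Kupffer cell markers were called lower under Wy-14,643 (Clec4f by -0.32 ± 0.09), with 3 of 5 stellate, 2 of 3 bile duct, 1 of 6 endothelial and 1 of 2 red cell markers, and 0 of 2 lymphocyte and 0 of 1 platelet markers, where 35.7% of all genes were called lower. Pooled over all times, the mean level of the 5 Kupffer markers ran from 12.00 to 13.20 on treated and from 12.11 to 13.92 on vehicle arrays. With the values as deposited, where 16.6% of all genes were called lower and 38.6% higher, 0 of 5 Kupffer cell markers were called, 2 of 6 endothelial, 1 of 5 stellate and 1 of 3 bile duct markers were called higher, and 1 of 2 red cell markers lower. For the mean under clofibrate none of these markers was called, nor was any at an unadjusted p under 0.05 in limma. The part of these cells in the results below was not tested.

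Under Wy-14,643 F7 and F11 were called lower at each time from 4 h to 14 days, F5 from 8 h to 14 days, and Fga from 18 h to 1 day. F11 fell most over the course, followed by F7, Fga and F5, and F9 moved least. Averaged over the 9 times, the differences were -1.26 ± 0.07 (SE) for F11, -1.02 ± 0.05 for F7, -0.84 ± 0.12 for Fga, -0.69 ± 0.06 for F5 and -0.14 ± 0.05 for F9. Adjusted p-values of limma were 4.16e-19, 5.77e-20, 8.17e-08, 1.31e-13 and 0.0195. As fold changes these are 2.39, 2.02, 1.79, 1.61 and 1.10 times lower. All 5 were called lower, where 35.7% of all 10290 genes tested for the mean were called lower. The median of the 5 was -0.84, beside -0.07 for all genes. The balance of all genes depended on the scaling: 2148 were called higher and 3669 lower, against 3974 and 1711 for the values as deposited, whose median was 0.07, and 2625 and 2720 after quantile normalization.

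**Figure D2:**
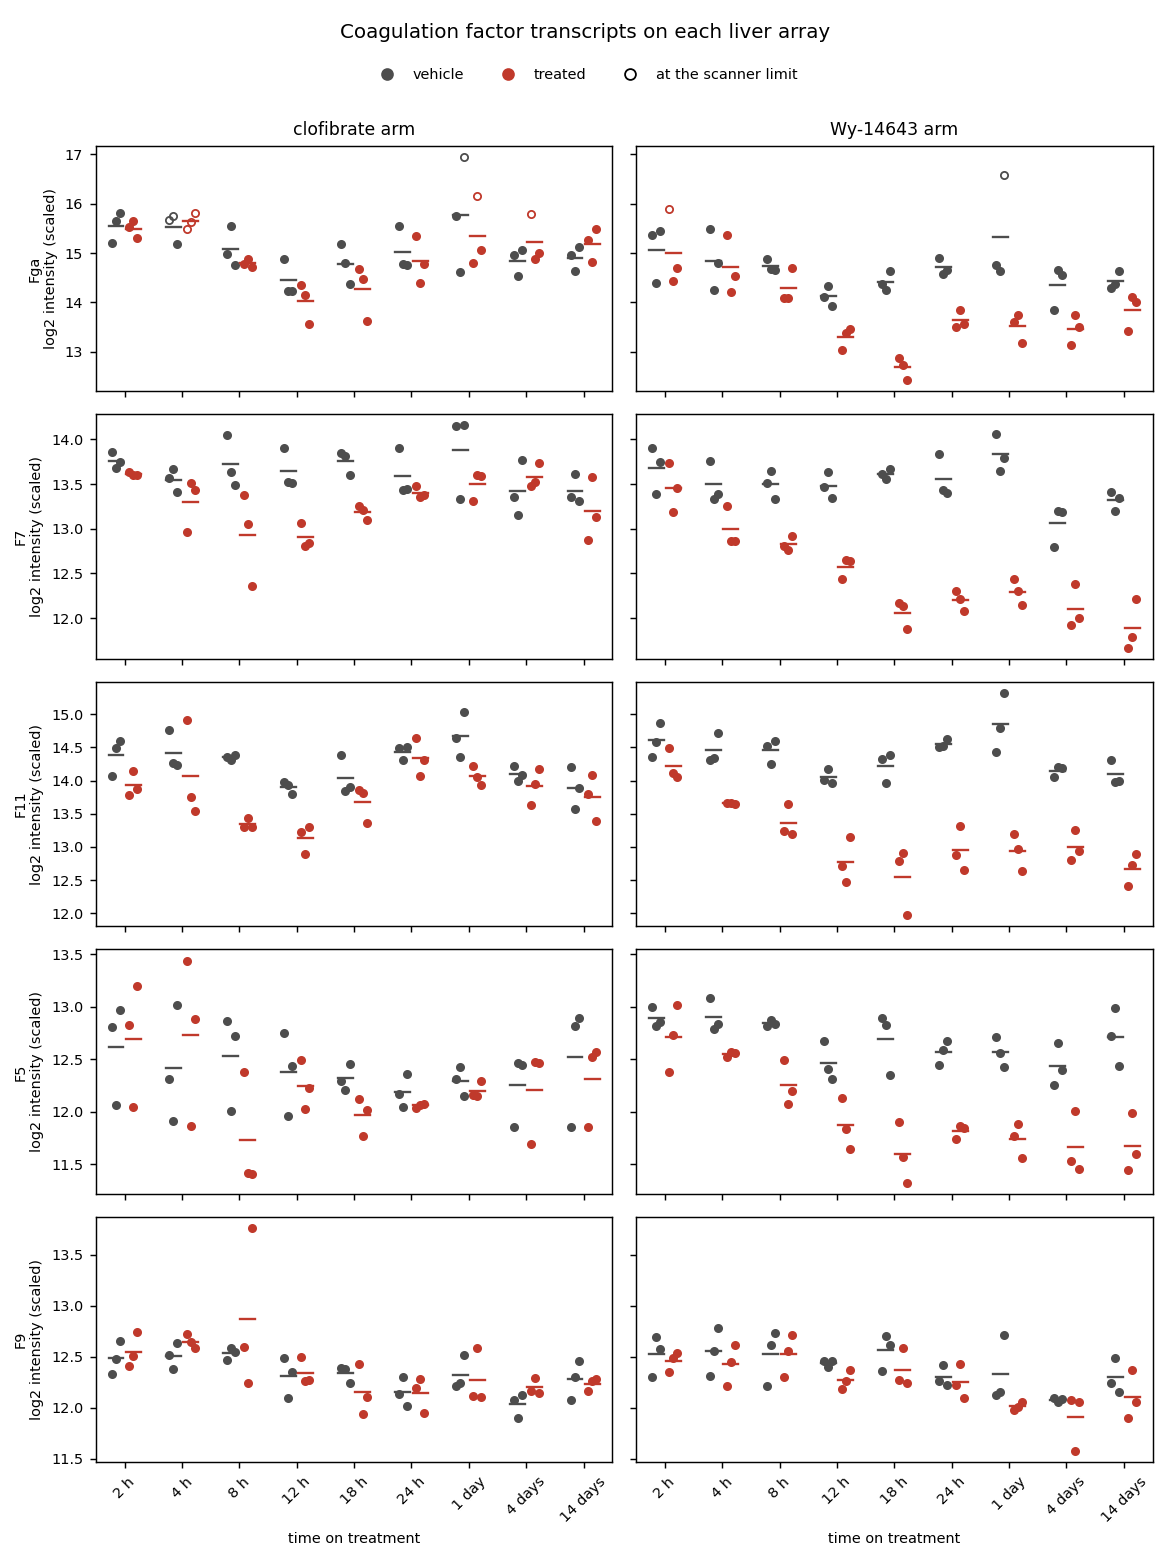
Scaled log2 intensity (y axes) of Fga, F7, F11, F5 and F9 on each of the 108 arrays by time (x axis), clofibrate arm left and Wy-14,643 arm right; bars are group means of 3 arrays and open points lie at the scanner limit. Treated Wy-14,643 arrays of F7, F11 and F5 lie below their vehicle arrays at 8 of 9 times, while the F9 points of treated and vehicle arrays overlap at most times.

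F7 encodes the protease that forms the starting complex with tissue factor. In the Wy-14,643 arm at 2 h, vehicle arrays lay at 13.91, 13.39 and 13.75 and treated arrays at 13.73, 13.19 and 13.46. The groups overlapped there. At 18 h vehicle arrays lay at 13.61, 13.55 and 13.67 and treated arrays at 12.16, 12.13 and 11.87, and at 14 days at 13.42, 13.20 and 13.35 against 11.67, 11.79 and 12.21. All treated arrays were below all vehicle arrays at both times, and so at 8 of 9 times. In order of time, the differences of F7 were -0.22, -0.50, -0.67, -0.91, -1.55, -1.36, -1.54, -0.96 and -1.43, each ± 0.16 (SE). All but the first were called, with adjusted p of 0.0353 at 4 h and 5.03e-10 at 18 h. At 4 h 6.29% of all genes were called lower and at 18 h 12.1%, and F7 stood among the lowest 0.914% of genes at 18 h. The array scaling enlarged the 24 h and 1 day values of F7, as the F2 values above show for 1 day. The 4 h call was lost with the values as deposited (-0.22, adjusted p = 0.389), with median scaling (-0.48, 0.0524), with the 75th percentile of all listed probes (-0.45, 0.0773) and in a fit on those 6 arrays alone (0.18), and without treated replicate 2 (-0.44) or 3 (-0.44) and without vehicle replicate 1 (-0.37) or 3 (-0.56). The effect of Wy-14,643 on F7 differed between times (limma F test, adjusted p = 2.19e-05), where 20.5% of all genes passed that test.

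F11 encodes factor XI, which activates factor IX. Its Wy-14,643 arm arrays at 2 h were 14.36, 14.59 and 14.87 for vehicle and 14.49, 14.12 and 14.06 for treatment, again overlapping. At 4 h they were 14.31, 14.34 and 14.72 against 13.67, 13.66 and 13.65, and at 1 day 14.43, 14.80 and 15.33 against 13.20, 12.97 and 12.64. Treated and vehicle arrays were separate at both of these times and at 8 of 9 in all. Differences of F11 in order of time were -0.38, -0.80, -1.10, -1.27, -1.67, -1.60, -1.92, -1.15 and -1.42, each ± 0.21. The last 8 were called, from 0.00878 at 4 h to 4.39e-09 at 1 day (limma, adjusted), and the 1 day value corresponds to a level 3.78 times lower. The array scaling enlarged the 1 day value, as the F2 values above show, and it enlarged the 24 h value of F11 as well. Without vehicle replicate 3 the 4 h value was -0.67 and not called (0.0706), and with the values as deposited it was -0.52 (0.089). Its effect also differed between times (adjusted p = 0.00324).

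F9 encodes factor IX, the vitamin K dependent protease next in the intrinsic branch. In the Wy-14,643 arm at 18 h vehicle arrays lay at 12.36, 12.71 and 12.62 and treated arrays at 12.27, 12.59 and 12.24, and at 24 h at 12.27, 12.42 and 12.23 against 12.22, 12.43 and 12.10. The groups overlapped at both times, and were separate at 2 of 9 times. No difference of F9 was called at a single time; the lowest was -0.32 ± 0.16 at 1 day (adjusted p = 0.143). With treated and vehicle replicates of equal number as pairs that value was called (adjusted p = 0.0112), and with the 75th percentile of all listed probes the 18 h value was (-0.41, 0.0337). Its mean difference of -0.14 was called, but not with the values as deposited (0.00 after rounding, adjusted p = 0.947), with median scaling (-0.11, 0.0603), in the mean without 1 day (-0.12, 0.0662), without treated replicate 1 (-0.10, 0.168) or without vehicle replicate 2 (-0.12, 0.117) or 3 (-0.10, 0.132). At 36.1% of all genes from the lowest, it stood near the middle of the distribution. A second F9 probe gave -0.18 ± 0.06 (adjusted p = 0.0073).

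F5 encodes the cofactor of factor X. Vehicle arrays of the Wy-14,643 arm at 8 h lay at 12.82, 12.88 and 12.83 and treated arrays at 12.49, 12.08 and 12.20. At 14 days they lay at 12.72, 12.99 and 12.44 against 11.44, 11.99 and 11.60. No treated array reached a vehicle array at either time, as at 8 of 9 times. The differences of F5 in order of time were -0.18, -0.35, -0.59, -0.59, -1.10, -0.75, -0.83, -0.77 and -1.04, each ± 0.17, and the 7 from 8 h on were called (adjusted p from 0.0132 at 8 h to 4.55e-06 at 18 h). With replicate pairs the 4 h value was called as well (0.0289). The calls at 8 h were lost without treated replicate 2 (-0.50) or vehicle replicate 2 (-0.57), those at 12 h without treated replicate 3 (-0.48) or vehicle replicate 1 (-0.49), and with the values as deposited F5 was at -0.37 at 24 h and -0.21 at 1 day, neither called. The effect differed between times with an adjusted p of 0.0477, though not with median scaling or quantile normalization, nor without treated replicate 2 or 3 or any 1 vehicle replicate (adjusted p from 0.0561 to 0.447).

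Fga encodes the alpha chain of fibrinogen, from which thrombin releases fibrinopeptide A. In the Wy-14,643 arm at 18 h vehicle arrays lay at 14.38, 14.25 and 14.64 and treated arrays at 12.88, 12.74 and 12.44. At 4 h the arrays were 15.49, 14.25 and 14.80 against 15.38, 14.22 and 14.54, and at 14 days 14.29, 14.38 and 14.64 against 13.43, 14.11 and 14.00. The groups overlapped at 4 h and were separate at 18 h and at 14 days, as at 6 of 9 times. Differences of Fga in order of time were -0.06, -0.13, -0.45, -0.83, -1.73, -1.07, -1.81, -0.89 and -0.59, each ± 0.35, the widest error of the 5 genes. Those at 18 h, 24 h and 1 day were called (adjusted p = 0.00025, 0.03 and 0.000221), at 3.33, 2.11 and 3.50 times lower. With replicate pairs the 12 h and 4 day values were called too (0.0366 and 0.0369), as they were in fits on the 6 arrays of each time alone (0.00339 and 0.0365).

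The array scaling enlarged the 1 day value of Fga, as it did that of F11. The 1 day value of Fga also rested in part on vehicle replicate 3, which was at the scanner limit (16.57) while the other vehicle arrays were at 14.76 and 14.64. Without vehicle replicate 3 the difference was -1.18 and still called (0.0224), and in a fit on those 6 arrays alone it was not (0.0744). The 24 h call was lost without treated replicate 1 (-1.01), 2 (-1.18) or 3 (-1.03) and without vehicle replicate 1 (-0.98), and with the values as deposited (-0.69). The effect of Wy-14,643 on Fga differed between times (adjusted p = 0.0424), though not with median scaling, nor without any 1 treated replicate or vehicle replicate 2 or 3 (adjusted p from 0.061 to 0.258).

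Markers of other cells were called lower at some of these times as well. At 1 day the differences of F11 and Fga were largest, while their treated arrays averaged lower at 18 h (12.55 against 12.93 for F11 and 12.69 against 13.52 for Fga). Array scaling raised the vehicle levels and lowered the treated ones at 1 day, as F2 shows above, and at 18 h it raised both. That the differences were largest at 1 day therefore depends on the scaling. Of 4 platelet markers 3 were called lower at 1 day (Ppbp by -1.16, Gp9 by -1.11 and Itga2b by -0.85), with a median of -0.98 for the list. These 3 had low mean levels (7.31, 7.03 and 7.05) and gave values on only 60, 24 and 42 arrays of the series. Their differences therefore rest on weak signals with many empty values. Pf4, with values on 105 arrays, was not called at 1 day (-0.65, limma adjusted p = 0.0658). Of 5 Kupffer cell markers 2 were called lower at 1 day (Marco by -1.73 and Cd5l by -0.77), with a median of -0.77. Of all genes 15.8% were called lower then. Alas2 of 2 red cell markers (-0.67), Des of 5 stellate markers (-0.46) and Pecam1 of 6 endothelial markers (-0.50) were called lower there too. At 24 h the calls were Clec4f of 5 Kupffer markers (-0.80), Des (-0.36), Alas2 (-0.92), and Krt7 (-0.67) and Krt19 (-0.64) of 4 bile duct markers, beside 10.4% of all genes, and at 18 h Alas2 (-0.90). At 14 days Lyve1 of the endothelial list (1.22) and Sox9 of the bile duct list (1.26) were called higher. The range of the share of all genes called higher at single times is given with the PPAR alpha targets below. Array scaling raised vehicle levels and lowered treated ones at 24 h as well as at 1 day, so it added to the marker differences at both times. The 1 day values of Des and Pecam1 were smaller than the scaling shift of F2. Values as deposited are not given for these markers at single times. The part of these cells in the values at these times was not tested.

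**Figure D3:**
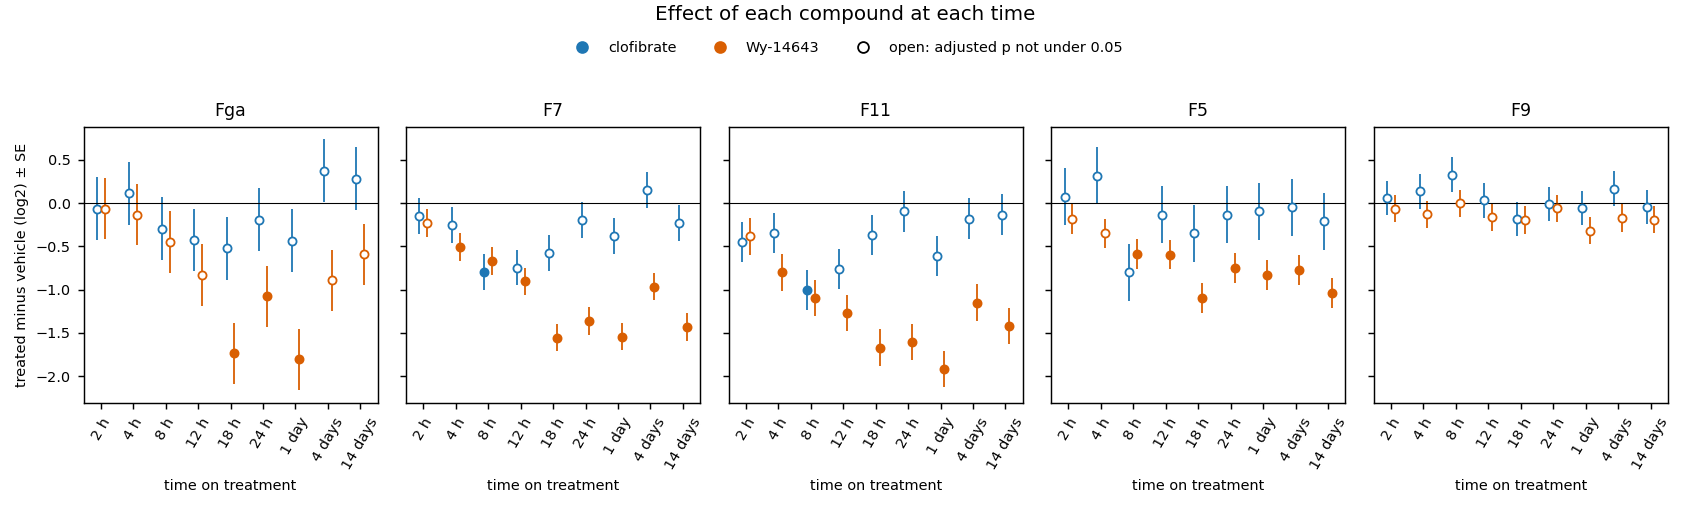
Treated minus vehicle difference in log2 units (y axis, bars are ± SE from limma, 3 arrays per group) at the 9 times (x axis) for clofibrate and Wy-14,643; filled points passed an adjusted p of 0.05. F7 and F11 under Wy-14,643 are called from 4 h to 14 days and lie near or below -1 from 12 h, while clofibrate points are called at 8 h only and F9 is called at no time.

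Counted over genes and times, 26 of the 45 single-time differences under Wy-14,643 were called, all lower. No gene was called at 2 h, nor at an unadjusted p under 0.05 in limma, and 2.22% of all genes were called lower then. The 4 h groups gave 2 of 5 genes. There were 3 of 5 in the 8 h groups (9.17% of all genes) and in the 12 h groups (10%). The count was 4 of 5 at 18 h, 24 h (10.4%) and 1 day (15.8%), and 3 of 5 at 4 days (4.28%) and 14 days (5.3%). With replicate pairs the count over all times was 30 of 45.

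Arrays of treated and vehicle mice were also compared without a model. Under Wy-14,643 all 3 treated arrays lay below all 3 vehicle arrays for 0 of 5 genes at 2 h, where 10.2% of all genes did so. From 4 h the count was 3 genes (18.6% of all genes), 3 at 8 h (17.4%), 5 at 12 h (22.2%), 4 at 18 h (23.9%), 4 at 24 h (28.3%), 5 at 1 day (26.2%), 4 at 4 days (18.7%) and 4 at 14 days (12.5%). Under clofibrate it was 1 gene at 2 h (4.66%), 2 at 8 h (10.8%), 2 at 12 h (8.62%), 2 at 18 h (5.42%) and 1 at 1 day (2.43%). It was 0 at 4 h (7.4%), 24 h (3.03%), 4 days (5.71%) and 14 days (2.71%). The other order, all treated above all vehicle arrays, was seen once, for F9 under clofibrate at 4 days (12.16, 12.30 and 12.15 against 12.08, 11.90 and 12.12), where 6.21% of all genes did so, and its difference of 0.17 ± 0.20 was not called.

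Clofibrate lowered F11 and F7, and less. At 8 h F11 lay at 14.35, 14.31 and 14.39 in vehicle arrays and at 13.30, 13.44 and 13.30 in treated arrays, a difference of -1.0 ± 0.23 (adjusted p = 0.00314), or 2.00 times lower. F7 lay at 14.05, 13.64 and 13.50 against 13.37, 13.05 and 12.36, a difference of -0.80 ± 0.21 (0.00845), or 1.74 times lower. Both genes were separate between the groups, and they were 2 of 5 genes called at 8 h, when 5.23% of all genes were called lower. The F11 call at 8 h was kept without any 1 replicate. The F7 call was lost without treated replicate 3 (-0.51, adjusted p = 0.27) or vehicle replicate 1 (-0.64, 0.104), and in a fit on those 6 arrays alone (0.197). Of 5 stellate cell markers 1 was called higher at 8 h, the intermediate filament gene Des (0.62 ± 0.15), and 2 were at an unadjusted p under 0.05 in limma; the part of these cells in the 8 h results was not tested.

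Treated replicate 3 at 8 h stood apart for F9 as well, at 13.76 beside 12.60 and 12.25 on the other treated arrays, and at 11.87 beside 11.10 and 10.77 on the second F9 probe. It is the same array on which F10 was under the limit. The F9 difference at 8 h was 0.33 ± 0.20 and not called, it was -0.12 without treated replicate 3, and without treated replicate 2 it was 0.64 and called (0.0394). F5 at 8 h lay at 12.86, 12.01 and 12.72 against 12.38, 11.41 and 11.40, overlapping groups with a difference of -0.80 ± 0.33 that was not called (adjusted p = 0.111). It was called with replicate pairs (0.00185), without treated replicate 1 (-1.12, 0.0197), with the values as deposited (-1.01, 0.0305) and with the 75th percentile of all listed probes (-1.27, 0.00252). Numbered replicates did not all deviate together at 8 h.

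At 12 h F11 (13.97, 13.93 and 13.79 against 13.23, 12.89 and 13.30) and F7 (13.91, 13.52 and 13.52 against 13.06, 12.81 and 12.84) were also separate between groups. Their differences of -0.76 ± 0.23 and -0.74 ± 0.21 were not called (adjusted p = 0.103 and 0.0611), and with replicate pairs both were (0.0212 and 0.00548); F7 also was with every gene read as the average of its complete probes (0.0499). By 24 h the arrays overlapped: F7 lay at 13.90, 13.43 and 13.45 against 13.48, 13.36 and 13.37. Over the 9 times 2 of 45 differences were called under clofibrate, or 5 with replicate pairs. The share of all genes called lower was small at the other times: 0.0202% at 2 h, 1.19% at 4 h, 0.379% at 12 h, 0% at 18 h and 24 h, 0.00998% at 1 day, 0.0959% at 4 days and 0.00972% at 14 days.

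The mean difference under clofibrate was -0.44 ± 0.08 for F11 and -0.35 ± 0.07 for F7, both called (adjusted p = 0.000112 and 0.000554, at 1.35 and 1.28 times lower), where 2.62% of 8100 genes were called lower. Without both of the near-identical vehicle arrays they were -0.41 and -0.36. The means of F5 (-0.15 ± 0.11), Fga (-0.13 ± 0.12) and F9 (0.05 ± 0.07) were not called. No gene passed the test for an effect differing between times, which 2.57% of all genes passed and F7 alone passed at an unadjusted p under 0.05 (0.0492), so in that fit the 8 h values are not shown to differ from those at other times. With replicate pairs F7 passed it (adjusted p = 0.0441). With the 75th percentile of all listed probes F7 and F11 passed it (adjusted p = 0.0128 and 0.0189). All 3 treated Fga arrays at 4 h were at the scanner limit, as were 2 of 3 vehicle arrays, so Fga was not readable at that time and its value there is bounded by the limit.

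Both compounds were given at the same dose and times, so their effects were set against each other directly, each relative to its own vehicle. F7 fell further under Wy-14,643 at each time from 18 h, and F11 at 18 h, 24 h, 1 day and 14 days. The difference of the effects (Wy-14,643 minus clofibrate) for F11 was -1.30 at 18 h, -1.51 at 24 h, -1.31 at 1 day and -1.29 at 14 days (each ± 0.32; adjusted p = 0.00693, 0.00125, 0.0163 and 0.00937). At 4 days it was -0.97 for F11 and not called (0.131). For F7 it was -0.98, -1.17, -1.16, -1.12 and -1.20 at 18 h, 24 h, 1 day, 4 days and 14 days (each ± 0.26; 0.0188, 0.00321, 0.00767, 0.0113 and 0.00184). The share of all genes called lower in this comparison was 1.22% at 18 h, 0.845% at 24 h, 0.382% at 1 day, 0.387% at 4 days and 0.639% at 14 days. Without both near-identical vehicle arrays F7 was at -1.08 at 4 days (adjusted p = 0.0407) and -1.17 at 14 days (0.00984), and F11 at -1.45 at 14 days (0.00616). At 4 and at 14 days 0 of 7 PPAR alpha target genes were called higher under clofibrate, and 5 and 7 of 7 under Wy-14,643. These counts stand beside the range of shares of all genes called higher that is given with these targets below.

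The calls at 24 h were kept without any 1 replicate number, and the others were not. For F11 the 18 h call was lost without vehicle replicate 2 (-1.34) or 3 (-1.16), the 1 day call without treated replicate 2 (-1.33) or 3 (-1.23) or vehicle replicate 2 (-1.17) or 3 (-1.25), and the 14 day call without treated replicate 1 (-1.13) or 2 (-1.15) or vehicle replicate 2 (-1.19). For F7 the 18 h call was lost without treated replicate 2 (-1.01) or 3 (-0.93) or vehicle replicate 3 (-0.88), and the 1 day call without treated replicate 2 (-1.12) or 3 (-1.04) or vehicle replicate 2 (-0.98). The 4 day call of F7 was lost without treated replicate 3 (-0.99) or vehicle replicate 2 (-0.91), and its 14 day call without treated replicate 2 (-0.96). At 1 day both calls were also lost with the values as deposited (-1.01 for F11 and -0.86 for F7) and in a fit on the arrays of that time alone (0.407 for both), and that of F11 with the 75th percentile of all listed probes (-1.06, 0.0559). The 4 day call of F7 was lost in a fit on the arrays of its time alone (0.0563).

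From 2 to 12 h no gene was called as differing between the compounds, nor did any pass an unadjusted p of 0.05 in limma, and few of all genes were called lower (0% at 2 h and 4 h, 0.0108% at 8 h and 0.253% at 12 h). At 8 h the difference was -0.10 for F11 (95% interval -0.73 to 0.54) and 0.13 for F7 (-0.39 to 0.65), so these data do not show that the compounds acted alike on them. With the 75th percentile of all listed probes, F7 at 8 h was called as lower under clofibrate (0.70, adjusted p = 0.0454).

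Over the whole course 4 of 5 genes fell further under Wy-14,643: F11 by -0.82 ± 0.11, Fga by -0.71 ± 0.17, F7 by -0.67 ± 0.09 and F5 by -0.54 ± 0.13 (adjusted p = 3.28e-09, 0.0014, 5.63e-09 and 0.000878), where 10.8% of 8058 genes did. Without both near-identical vehicle arrays these values were -0.84, -0.72, -0.66 and -0.48, all called. F9 differed by -0.19 ± 0.08 (95% interval -0.36 to -0.02), not called (0.107), or called with replicate pairs (0.0263). F5 was called at no single time, and with replicate pairs at 18 h, 1 day, 4 days and 14 days (0.0173, 0.0341, 0.0321 and 0.0104).

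The other genes were also read as a ratio to F9 on the same array, which does not depend on the array scaling. F9 was chosen after the data were seen, because it moved least, so the ratios are a description with no test. The log2 ratio of F11 to F9 averaged 1.98 in Wy-14,643 vehicle arrays and 0.87 in treated arrays, and that of F7 fell from 1.10 to 0.23. The changes were -1.11 for F11, -0.87 for F7, -0.70 for Fga and -0.55 for F5 under Wy-14,643. Under clofibrate they were -0.49 for F11 and -0.40 for F7, lower at 9 of 9 times in both, and -0.20 for F5 and -0.18 for Fga. At 4 days F7 itself was at 0.16 under clofibrate and F9 at 0.17, so the F7 ratio was lower there only through F9. The 8 h ratios under clofibrate hold the F9 value of treated replicate 3 (13.76). Each change is the effect on that gene less the effect on F9, so the ratios restate the differences above.

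In vehicle livers no change of the clotting genes over the first day was called. None of the 5 passed the F test over 2 to 24 h in either arm, where 10.7% and 26.4% of all genes did; at an unadjusted p under 0.05 Fga passed in the clofibrate arm (0.0314). With the values as deposited F5, F9 and F11 passed in the Wy-14,643 arm (adjusted p = 0.0011, 0.00632 and 0.0249), with quantile normalization Fga did in the clofibrate arm (0.0334), and with the percentile of all listed probes F9 did there (0.00964). Group means of vehicle arrays over all 9 times spanned 0.46 log2 for F7 in the clofibrate arm and 0.77 in the Wy-14,643 arm, 0.79 and 0.80 for F11, 0.42 and 0.47 for F5, 0.50 and 0.49 for F9, and 1.32 and 1.20 for Fga. The Wy-14,643 effects on F7 from 12 h on were larger than its vehicle span at each time, and those on F11 from 4 h were of its size or larger. For Fga only the values at 18 h and 1 day exceeded the vehicle span.

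Across the 18 effects (9 times by 2 compounds) F7 and F11 moved most alike, with a correlation of 0.95, followed by Fga with F7 (0.90), Fga with F11 (0.89) and F5 with F7 (0.88). F9 ran least with the others (0.47 to 0.66). The effects of one time share arrays and scaling, so these values are descriptions. Of 8058 genes with all 18 effects, those most like the mean of the 5 clotting genes were complement C2 (0.97), the phosphatidylethanolamine methyltransferase Pemt (0.95), kininogen Kng2 (0.95), the urea cycle enzyme Asl (0.95) and the phospholipase Gpld1 (0.95), and 0.397% of genes had a correlation over 0.9. Under Wy-14,643 their mean differences were -0.85 ± 0.06 for C2, -0.58 ± 0.07 for Pemt, -0.48 ± 0.06 for Kng2, -1.13 ± 0.09 for Asl and -1.20 ± 0.07 for Gpld1.

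Other genes of the clotting system were read from lists, and the counts under Wy-14,643 in these lists stand beside 35.7% of all genes called lower, or 16.6% with the values as deposited, and those under clofibrate beside 2.62%. Of the other factors and contact system, 4 of 7 tested were called lower and 1 higher for the mean Wy-14,643 effect, with a median of -0.34 beside -0.07 for all genes. The lowest were plasma prekallikrein Klkb1 (-0.63 ± 0.08), kininogen Kng2 (-0.48 ± 0.06) and the factor XIII subunit F13b (-0.42 ± 0.06). Tissue factor F3, the membrane receptor of factor VII, was higher (0.39 ± 0.09). Prekallikrein was called at 8, 12 and 18 h (-0.74, -1.12 and -1.03), and not at 24 h (-0.32, adjusted p = 0.401). Under clofibrate 0 of 4 genes of this list were called (1 at an unadjusted p under 0.05 in limma).

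Inhibitors of clotting were read next. Of 7 tested under Wy-14,643 4 were called lower: protein Z, Proz (-0.69 ± 0.04), its partner the protein Z dependent inhibitor Serpina10 (-0.60 ± 0.13), histidine-rich glycoprotein Hrg (-0.47 ± 0.09, at the limit on 31 arrays) and protein S, Pros1 (-0.27 ± 0.06, or -0.13 and not called with the values as deposited). The median was -0.33. Proz was called at 8 of 9 times and was lowest at 18 h (-1.38 ± 0.12), and it was the only 1 of 5 called under clofibrate (-0.14 ± 0.04, adjusted p = 0.0318), where the values as deposited gave -0.08 (0.318). Of the list named fibrinolysis 2 genes were tested under Wy-14,643. Fibrinogen-like protein Fgl1 was called lower (-0.37 ± 0.07, at the limit on 25 arrays). The plasminogen activator Plat was not called (-0.02 ± 0.06, limma adjusted p = 0.82). Fgl1 bears a fibrinogen-like name, and its value is not read as a change of fibrinolysis. Under clofibrate 0 of 1 was called (0 at an unadjusted p under 0.05 in limma). In the vitamin K cycle 2 of 3 were called lower, the omega-hydroxylase Cyp4f14 (-1.27 ± 0.10, at the limit on 55 arrays, which understates a difference) and the gamma-carboxylase Ggcx (-0.13 ± 0.05), which was called under no other scaling tried and lay at 0.01 with the values as deposited, and 0 of 2 under clofibrate (0 at an unadjusted p under 0.05).

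Regulators of liver genes were listed as well. Of 9 hepatocyte transcription factors 6 were called lower under Wy-14,643, led by Cebpa (-0.66 ± 0.08), Prox1 (-0.51 ± 0.07) and the repressor Nr0b2 (-0.47 ± 0.10), and Cebpb was higher (0.28 ± 0.10). With the values as deposited the count was 4 of 9. Cebpa was called at 12 h, 18 h, 24 h and 14 days and lowest at 18 h (-1.27 ± 0.24). None of the 9 was called for the mean under clofibrate (1 at an unadjusted p under 0.05 in limma). Of the interleukin-6 signalling and acute phase list, to which fibrinogen is usually counted, 14 of 16 were called lower under Wy-14,643, with a median of -0.61, or 12 of 16 with the values as deposited. The lowest were the serum amyloids Saa4 (-1.57 ± 0.15), Saa2 (-1.02 ± 0.23) and Saa1 (-0.90 ± 0.22), the last pair at the limit on 14 and 13 arrays. Stat3, the factor activated by the interleukin-6 receptor, singled out after its value was seen, was at -0.83 ± 0.13. Under clofibrate 0 of 14 were called (1 at an unadjusted p under 0.05 in limma), with a median of -0.18. Whether these lists moved differently under the compounds was tested gene by gene: 4 of 14 acute phase genes and 2 of 9 transcription factors were called lower under Wy-14,643 than under clofibrate, where 10.8% of all genes were.

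PPAR alpha targets were read beside the treatment labels. The list was chosen with earlier results of these data known, so it gives no independent check of the labels. For the mean over the 9 times all 7 tested were called higher under each compound, with medians of 2.66 under Wy-14,643 and 1.50 under clofibrate, and 5 of 7 rose further under Wy-14,643. Of all genes 20.9% were called higher for the mean under Wy-14,643, 3.37% under clofibrate and 7.55% for the difference. By time the count under clofibrate was 7 of 7 at 4 h and 8 h (medians 1.90 and 2.27), 3 of 7 at 18 h, 2 of 7 at 24 h (0.77), 3 of 8 at 1 day, and 0 of 7 at 4 days (0.18) and at 14 days (0.23), where 2 and 1 of 7 were at an unadjusted p under 0.05 in limma. Under Wy-14,643 at least 5 were called higher at each time, with medians from 1.56 at 4 days to 3.63 at 18 h. The share of all genes called higher at single times ran from 0.0194% to 6.46% under clofibrate and from 2.07% to 10.2% under Wy-14,643. The carnitine palmitoyltransferase Cpt1b, under the limit on all arrays, rose by 3.80 ± 0.09 under Wy-14,643.

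**Figure D4:**
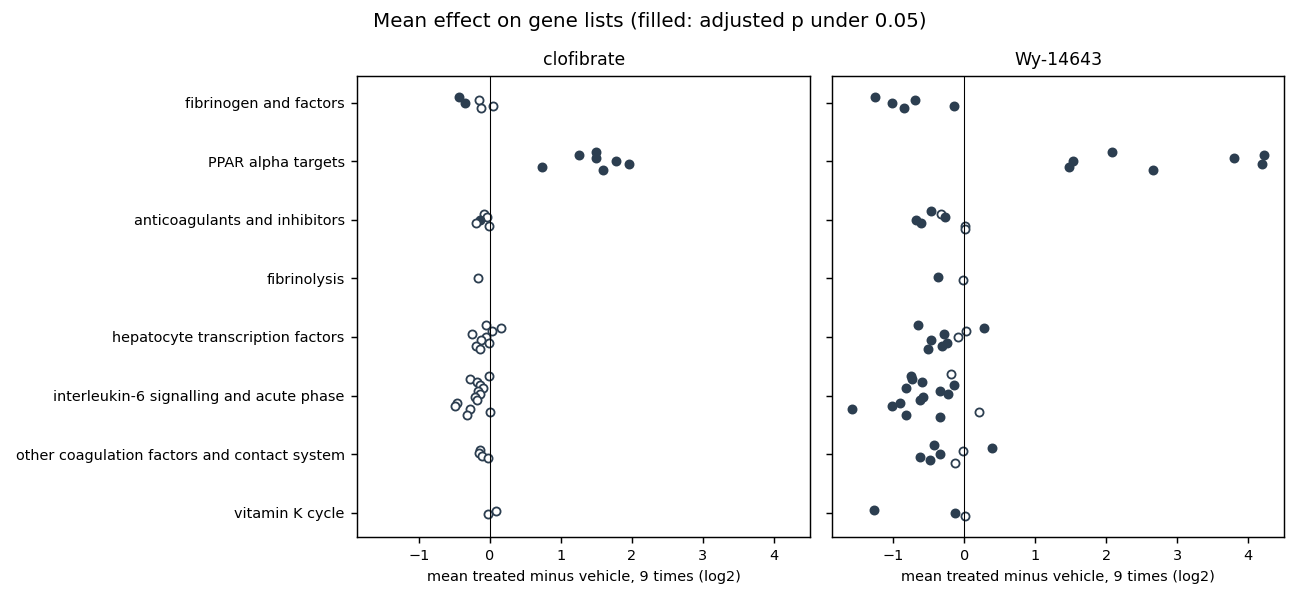
Mean treated minus vehicle difference over 9 times in log2 units (x axis) for each tested gene of the clotting genes and 7 related lists (y axis), clofibrate left and Wy-14,643 right; filled points passed an adjusted p of 0.05. PPAR alpha targets lie to the right of 0 under both compounds, while 14 of 16 genes of the interleukin-6 and acute phase list are called lower under Wy-14,643 and 0 of 14 under clofibrate.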

How the data were processed

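The values are the log2 fluorescence intensities deposited by the authors for 108 single-colour Cy3 arrays; background handling, normalization and scanner software are not given in the sources used here, and 51.4% of values were empty. The tied brightest values of the 3 arrays of a group averaged between 15.9984 and 16.001 in each group. Of 41096 probes, 32609 had 1 gene symbol. Arrays were scaled to a common 75th percentile over the 12210 probes with a value on all of them. A gene was read from its brightest probe that never reached the scanner limit, probes with a value on at least 50% of arrays first, or failing that from its brightest probe. A value within 0.1 log2 of the tied brightest value of its array counted as at the limit; this replaced the highest value of the array, since up to 162 values per array lay above the tie, and the earlier form is among the alternatives.

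Differences were fitted with limma 3.58.1 in R 4.3.3, each arm on its 54 arrays with a mean for each group and the variance trend on, the compounds against each other on all 108. P-values were Benjamini-Hochberg adjusted over all genes of a comparison at 0.05, and errors are standard errors. The number of arrays limits the precision. Treated and vehicle replicates of equal number deviated together: all 3 pairs correlated over 0.1 in 16 of 18 comparisons, the exceptions being clofibrate at 8 h and 1 day (-0.20 to 0.85 over 54 pairs), so a paired fit is given where it changes a call.

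Named genes are the 10 members, of each list at most the 3 highest and 3 lowest called mean effects, and the 5 genes most alike to the members. Plat is named as the other tested gene beside Fgl1. Stat3 was singled out after its value was seen, and cell type markers are named as a check of the tissue label. The members and lists were chosen with earlier results of these data known.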

Additional observations from a re-analysis of the deposited data

Results flagged for a closer look

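The effects of the 2 compounds on F11, F7, Fga and F5 differed by a test of the difference itself (limma, both arms, Wy-14,643 minus clofibrate), and that on F9 was not called as different (mean -0.19, adjusted p = 0.107). For F11 the difference was -1.30 at 18 h, -1.51 at 24 h, -1.31 at 1 day and -1.29 at 14 days, and for F7 it was -0.98 at 18 h, -1.17 at 24 h, -1.16 at 1 day, -1.12 at 4 days and -1.20 at 14 days. Of these single-time calls the 24 h ones alone were kept in all 6 fits without 1 replicate number; the others were kept in 2 to 5 of 6. Averaged over the 9 times it was -0.82 for F11, -0.67 for F7, -0.71 for Fga and -0.54 for F5.

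The effect of Wy-14,643 also differed between times for 4 of 5 genes (limma F test), with adjusted p of 2.19e-05 for F7, 0.00324 for F11, 0.0424 for Fga and 0.0477 for F5. Those of Fga and F5 were each lost in 5 of 6 fits without 1 replicate number. Dixon's test was not applied, since groups held 3 arrays.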

How the results depend on the processing

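Across 2761 recomputed values of single genes, 2593 kept their direction and side of the threshold, 92 that were called in neither setting turned their sign, 55 lost a call, 21 gained one, and none that was called turned its sign. The counts that moved by more than 1.5 times were few. With the replicate block, clofibrate calls over the 9 times rose from 2 to 5 and genes with a clofibrate effect differing between times from 0 to 1 (F7); the calls the replicate block changed are given beside their genes, and it changed no other call of their differences or of effects differing between times. Fitting only the groups compared left 1 clofibrate call. Vehicle genes changing over 2 to 24 h numbered 0, but 3 with the values as deposited, 1 with the 75th percentile of all listed probes and 1 with quantile normalization. Genes with a Wy-14,643 effect differing between times fell from 4 to 2 with median scaling, and those with a clofibrate effect differing between times were 2 with the percentile of all listed probes. Without 1 replicate number at a time, clofibrate calls ran from 1 to 3, calls of the compounds' difference from 4 to 9, and Wy-14,643 effects differing between times from 2 to 3. The cause was not tested, beyond the smaller number of arrays in these fits. Wy-14,643 calls at single times ran from 21 to 30 over all alternatives and 4 or 5 of 5 mean effects were called in each. Alternatives added after seeing the data were the mean without 4 h, the limit taken from the highest value, the ratios to F9, and the related lists and markers under the other scalings; the first 2 moved no count by over 1.5 times. Fga gave no clofibrate value at 4 h or for the mean without vehicle replicate 3, which was its only array under the limit in those groups. Where 1 of the groups compared is at the scanner limit, the values understate differences, which touches Fga most of the 5 readable genes. Where both groups are at the limit, the array scaling can itself give a difference, as for F2 at 1 day.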
